A study of Arabidopsis thaliana with 24 samples.

Results

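The cytosolic small heat shock proteins of Arabidopsis thaliana were followed through 8 genes, picked by their gene identifiers from the 27655 genes of the deposited table. Of these, 6 encode class I proteins: HSP17.4 (AT3G46230), HSP17.6C-CI (AT1G53540), HSP17.8-CI (AT1G07400), HSP18.2 (AT5G59720), HSP17.6B-CI (AT2G29500) and HSP17.6A-CI (AT1G59860). The other 2 encode class II proteins: AT-HSP17.6A (AT5G12030) and HSP17.6II (AT5G12020). The names HSP17.6A-CI and AT-HSP17.6A belong to different genes of different classes. Each of the 8 was measured in all 24 libraries, passed the filter on low counts, and also passed it when it was applied to the 12 unheated libraries alone. Summed over the 3 control libraries, the genes held from 38 (HSP17.6II) to 364 reads (HSP17.6B-CI), so their levels at 22 °C rest on few reads.

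RNA was sequenced from rosettes of wild-type Col-0 plants that had been moved to new soil at 2 weeks and grown there for 14 days before treatment. The 8 groups were all 3 stresses (150 mM NaCl with 200 mM mannitol, and heat), salt plus heat, mannitol plus heat, heat alone, salt plus mannitol, salt, mannitol and an unstressed control, with 3 biological replicates each. Salt and mannitol were given in the water 16 h before sampling. Heat was 35 °C for the last 4 h, begun in the combinations 12 h after watering, and unheated plants stayed at 22 °C by day. The protocols record no such watering for the control and heat groups, so in comparisons with either of them the treated plants differ in watering as well as in the solute, while salt and mannitol plants share the watering. Whether plants were pooled within a replicate is not stated, and the p-values below therefore speak of the spread between libraries, part of which may be technical. Libraries held 12.5 to 19.5 M reads. The leaf markers RBCS1A, CAB3 and RCA summed to 14629 to 38849 TPM (the deposited level per transcript length), while all 12 markers of root hairs, seeds and flowers averaged below 1 TPM in every group. The leaf sum was lowest under all 3 stresses (14629 to 15382 TPM) and highest in control (33621 to 38849 TPM), and its part in the results was not tested. In bulk rosettes, fewer cells of a type and less RNA per cell cannot be told apart.

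Small heat shock proteins are chaperones that bind partly unfolded proteins without using ATP and hold them until ATP-driven chaperones, HSP70 with HSP101, release and refold them. Each has a conserved alpha-crystallin domain and assembles into large oligomers, and in plants class I and class II form separate cytosolic oligomers. In leaves their genes are nearly silent at moderate temperature and are switched on by heat shock factors, which bind arrays of the pentamer NGAAN in alternating orientation, the heat shock element.

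All 8 genes have a single exon in the RefSeq annotation of TAIR10.1, with coding regions of 462 to 486 bases (153 to 161 codons). HSP17.6II and AT-HSP17.6A are direct neighbours on chromosome 5, with 845 bases and no gene between them, and the other 6 lie apart on chromosomes 1, 2, 3 and 5. Their upstream sequences were searched on both strands for a 3-unit heat shock element, GAANNTTC followed by NNGAA or TTCNNGAA followed by NNTTC, and for the shorter 2-unit element, GAANNTTC or TTCNNGAA, which every longer match also contains. In the 500 bases before the start codon the longer element occurred in 3 of 8 genes, against 1.20% of 27443 genes in all, and the shorter one in 8 of 8, against 34.0% of all. In the window from 250 bases before to 50 after the annotated transcript start, the longer element occurred in 2 of 8 genes (all genes, 0.481%) and the shorter one in 4 of 8 (all genes, 19.3%). The window before the start codon was added after seeing that the annotated 5′ UTRs of these genes run from 131 to 380 bases. The sites with the longer element are shown first, because they are the rarest feature found upstream of these genes. Each is given 5′ to 3′ on the gene's strand, from RefSeq TAIR10.1, with the element in capitals.
HSP17.4 (chr3:16984945-16984974, minus strand): tcaacataGAAGCTTCTTGAAgccacctga
HSP17.4 (chr3:16984864-16984893, minus strand): agaaacctGAAATTTCAAGAAacttgcaga
HSP17.6C-CI (chr1:19980238-19980267, plus strand): caacaccaGAAACTTCTTGAAagcacctga
HSP18.2 (chr5:24062388-24062417, plus strand): caacaaacGAAACTTCCTGAAatgccaaga
The HSP18.2 site lies inside that gene's annotated 5′ UTR, while the elements of HSP17.4 and HSP17.6C-CI lie before the annotated starts. The next lines show 1 site of the shorter element, in capitals, for each of the other 5 genes.
HSP17.8-CI (chr1:2274983-2275012, plus strand): ggacccgtaaaTTCTAGAAgctctggagat
HSP17.6B-CI (chr2:12633838-12633867, minus strand): gagaagctcgaGAAATTTCggttagtacct
HSP17.6A-CI (chr1:22031339-22031368, plus strand): atttgcctcatTTCTAGAAgctctggagat
AT-HSP17.6A (chr5:3884842-3884871, minus strand): gatcaagacgtTTCTCGAAcgttagagaag
HSP17.6II (chr5:3883035-3883064, minus strand): gaccaagacgtTTCTCGAAcaatacggaag
HSP17.8-CI and HSP17.6A-CI carry the same letters in the element, and so do the class II neighbours. These sites lie before the annotated start in AT-HSP17.6A and inside the annotated 5′ UTR in the other 4. A match describes letters in a window and not binding.

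Coding sequences split by class. Within class I, pairs were identical at 67.5% to 88.1% of alignment columns (15 pairs, median 70.6%), the class II pair at 86.1%, and pairs across the classes at 51.1% to 55.3% (12 pairs). The closest class I pair was HSP17.8-CI with HSP17.6A-CI at 88.1%, followed by HSP17.4 with HSP17.6C-CI at 85.0%. For 7 of the genes, 0 to 3.14% of the 31-base words of the transcript occur in another gene, so most of their sequence tells them apart. HSP17.8-CI and HSP17.6A-CI have 24 words in common. Their counts held fractions in most libraries, as with 3759.44 and 753.563 reads in heat replicate 1, and so are partly estimates of how reads divide. What this does to their changes was not tested. For HSP17.4 the share of words found in another gene was 65.3%, all of it in the opposite-strand loci AT3G07365, a long noncoding RNA locus that overlaps 453 bases, and AT3G46220, which overlaps 60 bases. The library kit does not mark strand, so reads of HSP17.4 and of these loci cannot be told apart where they overlap. AT3G07365 is not among the genes of the deposited table, so its reads could have been counted to HSP17.4. Its part in the levels of HSP17.4 was not tested.

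**Figure D1:**
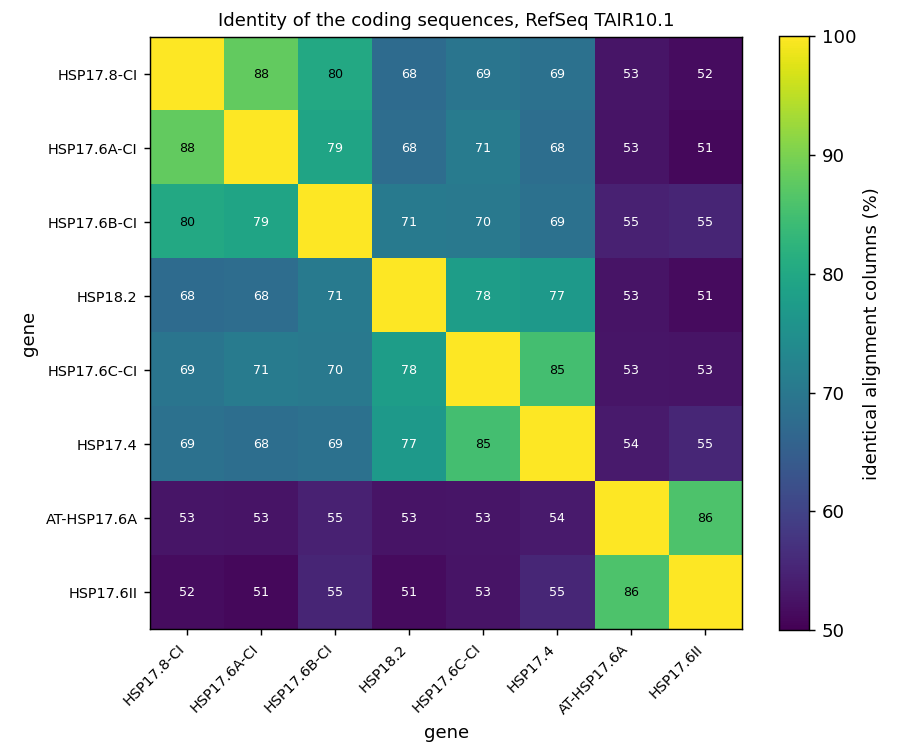
Percent identity of the coding sequences of the 8 genes (both axes, RefSeq TAIR10.1), as identical columns of a pairwise global alignment. The 2 class II genes match each other at 86.1% and every class I gene at no more than 55.3%.

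Heat raised 7 of the genes 193- to 395-fold over control and HSP17.6A-CI 44.9-fold. HSP17.6B-CI, a class I gene, had the highest mean of the 8 in every group and stood at 2519, 3939 and 2927 TPM in the heat libraries, against 16.0, 16.3 and 12.0 TPM in control. HSP17.4, a class I gene also known from maturing seeds, had 1013, 1628 and 1185 TPM in heat, against 2.79, 3.85 and 3.88 TPM in control. HSP18.2, whose promoter is widely used as a heat switch, had 711, 2194 and 1678 TPM in heat, against 8.96, 7.35 and 6.29 TPM in control. In each of these genes the lowest heat library lay far above the highest control. HSP17.6C-CI reached 392, 813 and 524 TPM in heat, against 1.61, 1.35 and 1.92 TPM in control. Its class I relative HSP17.8-CI reached 411, 775 and 495 TPM, against 3.29, 2.47 and 2.90 TPM. HSP17.6A-CI, the coding-sequence neighbour of HSP17.8-CI, reached only 84.0, 116 and 97.1 TPM in heat, against 2.40, 2.29 and 2.02 TPM in control. It was the least abundant of the 8 in all 4 heated groups, whereas in control it ranked 6th. Of the class II genes, AT-HSP17.6A had 669, 1126 and 809 TPM in heat, against 3.14, 2.38 and 2.33 TPM in control. HSP17.6II had 412, 841 and 555 TPM in heat, against 1.88, 1.49 and 1.18 TPM in control. Heat replicate 2 was the highest heat library for every one of the 8 genes and heat replicate 1 the lowest.

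**Figure D2:**
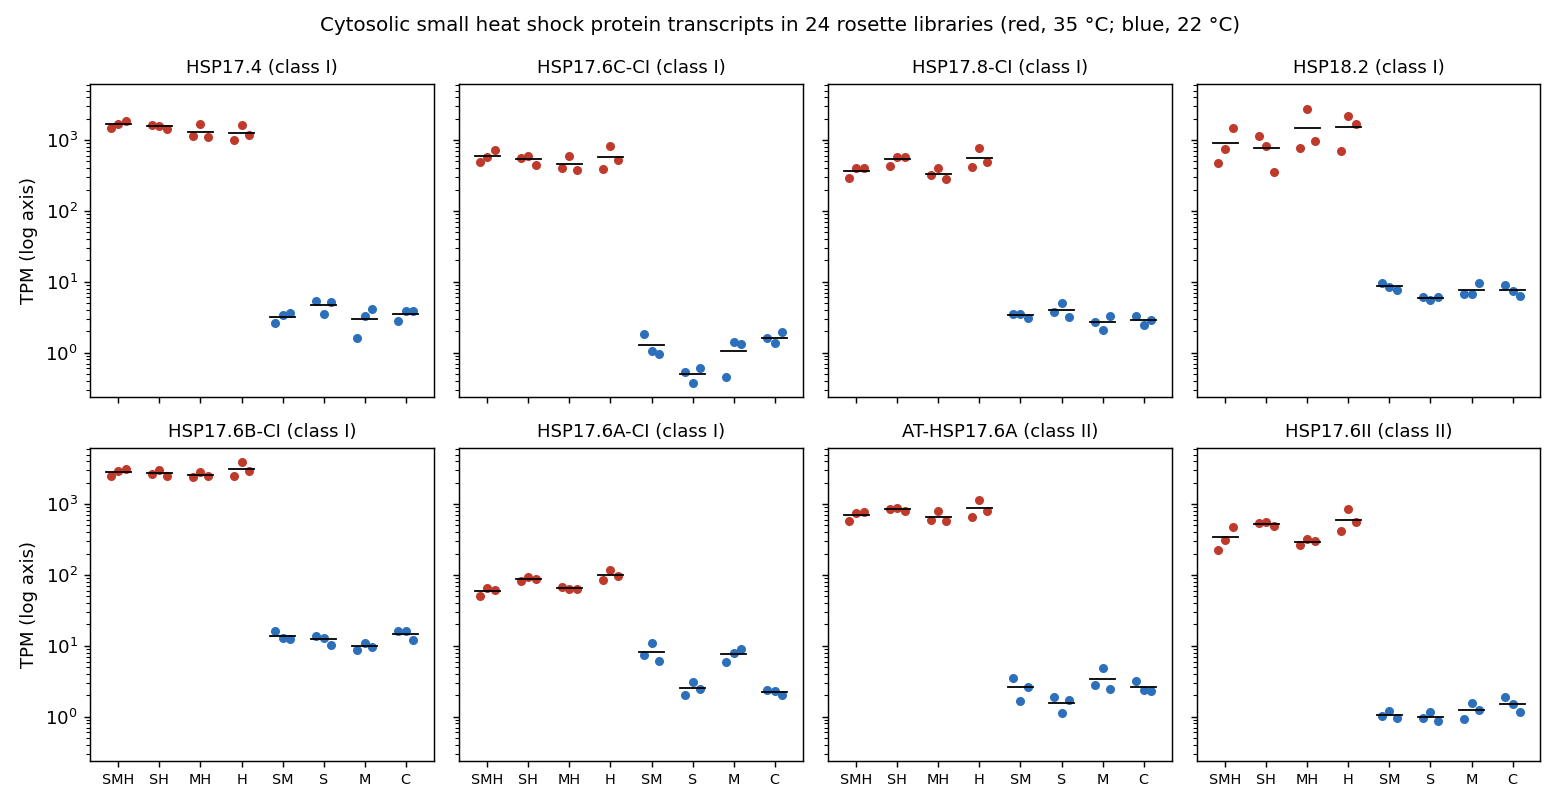
TPM (log axis) of each gene in the 24 libraries, 1 panel per gene; points are replicates 1 to 3 from left to right, bars the group means (SMH, all 3 stresses; SH, salt plus heat; MH, mannitol plus heat; H, heat; SM, salt plus mannitol; S, salt; M, mannitol; C, control). Every red point (35 °C) lies above every blue one (22 °C), and the gap is narrowest for HSP17.6A-CI, whose blue points are higher with mannitol (5.93 to 11.002 TPM) than in control (2.02 to 2.40 TPM).

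Against control, heat raised all 8 genes, in a comparison that called 31.7% of the 20027 tested genes higher. The log2 fold changes were 8.62 ± 0.36 for HSP17.6II, 8.51 ± 0.28 for HSP17.4, 8.48 ± 0.36 for HSP17.6C-CI and 8.37 ± 0.27 for AT-HSP17.6A (estimate ± SE, 3 libraries per group here and below). They were 7.73 ± 0.20 for HSP17.6B-CI, 7.67 ± 0.72 for HSP18.2, 7.59 ± 0.29 for HSP17.8-CI and 5.49 ± 0.20 for HSP17.6A-CI. The weakest of these calls, for HSP18.2, had a Benjamini-Hochberg adjusted p of 7.55e-08 in edgeR's quasi-likelihood test. Each SE, here and below, was derived as the size of the log2 fold change over the square root of that test's F statistic. The median log2 fold change over the 8 genes was 8.05, and that over all tested genes -0.00223. All 8 also rose under salt plus heat (median 7.93, background 31.7%), mannitol plus heat (median 7.60, background 32.6%) and all 3 stresses (median 7.66, background 33%). These comparisons share the control libraries. For all 8 genes every one of the 12 heated libraries lay above every one of the 12 unheated ones, which held for 14% of the tested genes. The lowest heated library was 194-fold above the highest unheated one for HSP17.6C-CI and 36.3-fold for HSP18.2, and only 4.64-fold for HSP17.6A-CI.

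Heat was also tested within each watering: all 3 stresses against salt plus mannitol, salt plus heat against salt, and mannitol plus heat against mannitol. All 8 genes rose in each, against 30.5%, 30.6% and 30.9% of tested genes in that order. Watering is common to both sides here. In 7 of the genes the log2 fold change lay between 6.73 (HSP18.2, all 3 stresses against salt plus mannitol) and 10.02 (HSP17.6C-CI, salt plus heat against salt). HSP17.6A-CI stood apart: its heat effect was 5.12 ± 0.20 with salt, 3.09 ± 0.16 with mannitol and 2.87 ± 0.16 with both. It was 5.49 ± 0.20 for heat against control, groups with no such watering on record.

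**Figure D3:**
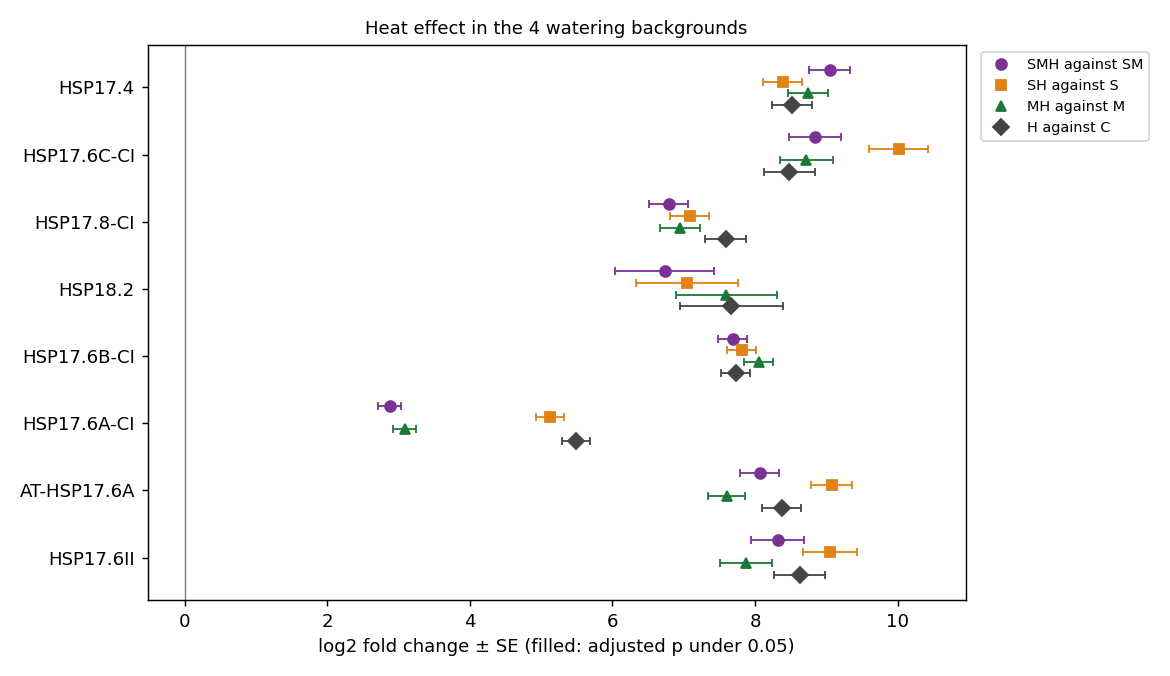
Log2 fold change ± SE of each gene for heated against unheated plants within the same watering (SMH against SM, SH against S, MH against M, H against C). All 32 changes are above 0 and called; those of HSP17.6A-CI with mannitol (2.87 and 3.09) are the smallest.

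HSP17.6A-CI was the gene of the 8 that rose with mannitol in unheated plants. It had 7.36, 11.002 and 6.12 TPM with salt plus mannitol and 5.93, 7.98 and 8.91 TPM with mannitol, against 2.40, 2.29 and 2.02 TPM in control. Every mannitol-watered library was above every control and every salt library. With salt alone it had 2.05, 3.05 and 2.44 TPM, which overlapped control. The rise was 1.84 ± 0.24 on the log2 scale with salt plus mannitol (edgeR quasi-likelihood test, Benjamini-Hochberg adjusted p = 1.1e-05) and 1.78 ± 0.24 with mannitol (adjusted p = 1.8e-05), and both calls held under each alternative run. Salt alone gave 0.18 ± 0.31 (adjusted p = 0.768).

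Whether heat and watering add up on the log2 scale was tested as the heat effect with salt or mannitol watering minus that of heat against control. With mannitol, 1 of 8 genes departed from the sum, against 5.19% of tested genes in that direction: HSP17.6A-CI, whose heat effect was lower by 2.40 ± 0.28 (adjusted p = 3.97e-05). With salt plus mannitol it was again the 1 gene of 8 that departed, against 3.11% of tested genes in that direction, with a difference of -2.62 ± 0.28 (adjusted p = 1.55e-05). The gene was higher with mannitol at 22 °C and, as given below, lower with mannitol at 35 °C. In the 7 other genes the departures with mannitol ran from -0.77 to 0.32, none called. With salt, edgeR called 0 of 8 departures (0 at an unadjusted p under 0.05; DESeq2 called 0 and limma 0), against 1.4% of tested genes. The largest of these was HSP17.6C-CI at 1.54 ± 0.81 (adjusted p = 0.345).

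Without heat, few of the other genes were called. With mannitol, HSP17.6B-CI had 8.85, 11.1 and 9.49 TPM, against 16.0, 16.3 and 12.0 TPM in control, with all 3 mannitol libraries below all 3 controls. It fell by 0.61 ± 0.19 on the log2 scale (adjusted p = 0.0227). With HSP17.6A-CI this made 1 rise and 1 fall among the 8, against 12.2% of tested genes higher and 11.4% lower. The fall of HSP17.6B-CI lost its call when any of 4 libraries was left out (control replicates 1 and 2, mannitol replicates 1 and 3; -0.53 and adjusted p = 0.0942 without control replicate 2) and with library totals alone. With salt plus mannitol HSP17.6A-CI was the 1 gene called of 8, against 32.6% of tested genes. With salt, edgeR called 0 of the 8, against 10.9% of tested genes; 1 had an unadjusted p under 0.05, and DESeq2 and limma each called 1. That gene was HSP17.6C-CI, with 0.535, 0.377 and 0.601 TPM under salt, against 1.61, 1.35 and 1.92 TPM in control. The groups did not overlap, and the log2 fold change was -1.66 ± 0.78 in edgeR (adjusted p = 0.192). It passed with the 2 groups alone in the fit (adjusted p = 0.0183), in DESeq2 (0.0258) and in limma on log2(TPM + 1) (0.0403), at levels near 1 TPM.

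In plants that were heated in any case, adding mannitol lowered 3 of the 8 genes, against 6.31% of tested genes lower. HSP17.6II, of class II, had 264, 321 and 297 TPM with mannitol plus heat, against 412, 841 and 555 TPM with heat alone. HSP17.8-CI had 325, 399.8 and 282 TPM, against 411, 775 and 495 TPM. HSP17.6A-CI had 66.8, 64.1 and 64.3 TPM, against 84.0, 116 and 97.1 TPM. In all 3 the highest mannitol plus heat library was below the lowest heat library, and their calls rest on these same values. How many of all tested genes separate in this way was not counted, here or for the pairs of groups below. HSP17.6II, HSP17.8-CI and HSP17.6A-CI fell by 1.05 ± 0.22 (adjusted p = 0.00543), 0.76 ± 0.19 (0.0157) and 0.62 ± 0.13 (0.00455) on the log2 scale, by edgeR's quasi-likelihood test with Benjamini-Hochberg adjustment. AT-HSP17.6A, the other class II gene, had 590.2, 792 and 576 TPM, against 669, 1126 and 809 TPM, with overlapping groups and a change of -0.43 ± 0.18 (adjusted p = 0.114). It passed without heat replicate 1 (-0.59, adjusted p = 0.0320) and without the 4 libraries of high organelle share (0.0356). HSP17.4, HSP17.6C-CI, HSP18.2 and HSP17.6B-CI lay between -0.35 and 0.03, none called. The call of HSP17.8-CI was lost without heat replicate 2 (-0.45, adjusted p = 0.106), mannitol plus heat replicate 1 (-0.73, 0.0521) or replicate 3 (-0.65, 0.0634). With the 2 groups alone in the fit, the calls of HSP17.8-CI (adjusted p = 0.152) and HSP17.6II (0.0707) were both lost. Mannitol plus heat replicate 2, the highest library of that group for 7 of the 8 genes, also stood apart in organelle-encoded genes (0.690% of reads) and in AT2G01021 (137226 TPM). Without it the changes were -1.13 for HSP17.6II (adjusted p = 0.0152), -0.91 for HSP17.8-CI (0.0149) and -0.62 for HSP17.6A-CI (0.0151).

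Under all 3 stresses, 3 of the 8 genes were lower than under heat alone, against 13.1% of tested genes lower. This comparison shares the heat libraries with the one before. Between heat, mannitol plus heat and all 3 stresses, deviations of same-numbered replicates had an r of 0.0831 to 0.221. Different-numbered replicates of these groups had -0.219 to 0.133, mostly below 0. Over all groups, 21 of 84 same-numbered pairs and 30 of 168 different-numbered pairs were above 0.1. HSP17.6A-CI had 51.0, 64.8 and 61.9 TPM under all 3 stresses, against 84.0, 116 and 97.1 TPM in heat. HSP17.8-CI had 295, 399.6 and 404 TPM, against 411, 775 and 495 TPM. For these the groups did not overlap. HSP17.6II had 229, 312 and 478 TPM, against 412, 841 and 555 TPM in heat, so that the third replicate of all 3 stresses was above the lowest heat library. They fell by 0.77 ± 0.13 (adjusted p = 0.000343), 0.64 ± 0.19 (0.0200) and 0.86 ± 0.22 (0.00917). HSP17.4 went the other way in value, with 1477, 1702 and 1851 TPM, against 1013, 1628 and 1185 TPM in heat. Its change of 0.36 ± 0.18 was not called (adjusted p = 0.162) and passed only without heat replicate 2 (0.58, adjusted p = 0.0335). Without that same library the calls of HSP17.8-CI (-0.34, 0.139) and HSP17.6II (-0.54, 0.0576) were lost, and that of HSP17.8-CI also without replicate 1 of all 3 stresses (-0.51, 0.104). Both calls were lost as well with the 2 groups alone in the fit (adjusted p = 0.155 for HSP17.8-CI and 0.195 for HSP17.6II). The falls of HSP17.6A-CI against heat alone, with mannitol and with all 3 stresses, held under every alternative run.

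**Figure D4:**
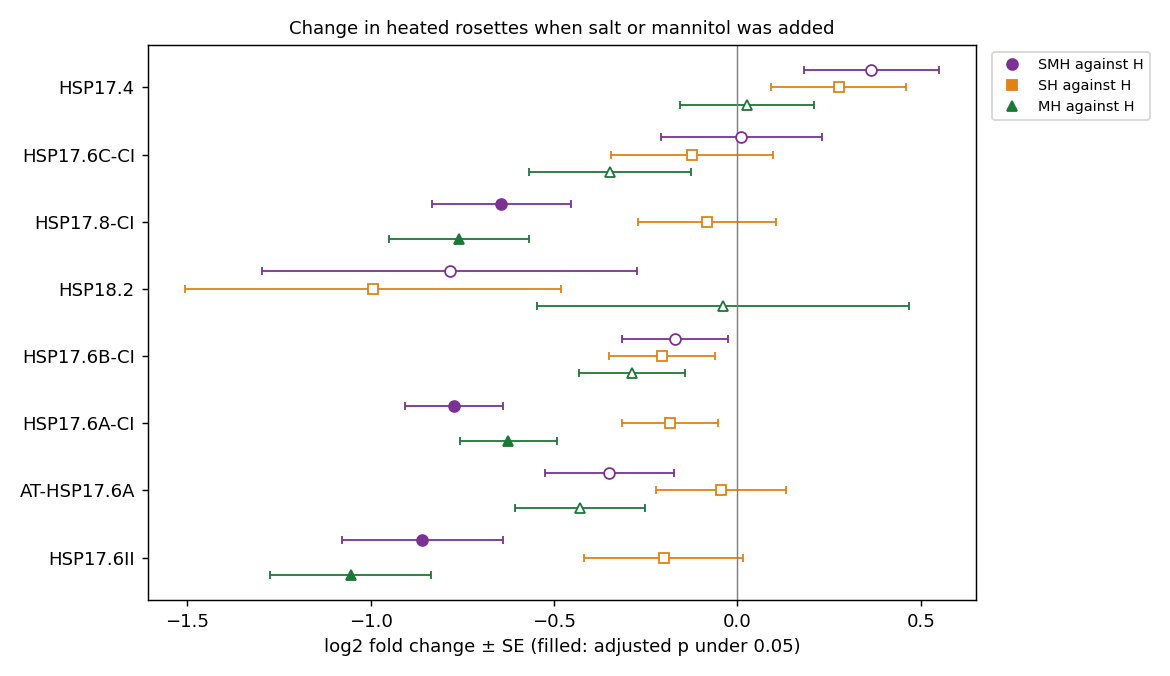
Log2 fold change ± SE of each gene when salt, mannitol or both were added to heat (SMH, SH or MH against H); filled symbols have an adjusted p under 0.05. HSP17.8-CI, HSP17.6A-CI and HSP17.6II are filled below 0 for the mannitol-containing treatments, and no symbol of salt plus heat is filled.

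Adding salt alone to heat left no gene called. edgeR called 0 of 8, against 1.03% of tested genes, 0 had an unadjusted p under 0.05, and DESeq2 and limma called 0 and 0. HSP17.4 had 1652, 1575 and 1449 TPM with salt plus heat, against 1013, 1628 and 1185 TPM with heat, a log2 fold change of 0.28 ± 0.18 (adjusted p = 0.544, 95% interval -0.08 to 0.64). HSP18.2 had 1146, 825 and 351 TPM, against 711, 2194 and 1678 TPM, a change of -0.99 ± 0.51 (adjusted p = 0.423, 95% interval -1.9980 to 0.01). Both pairs of groups overlapped, and the interval of HSP18.2 was the widest of the 8.

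The heated groups that were all watered were also set against each other. Under all 3 stresses, compared with salt plus heat, HSP17.6A-CI fell by 0.59 ± 0.13 (adjusted p = 0.00516), HSP17.6II by 0.66 ± 0.22 (0.0456) and HSP17.8-CI by 0.56 ± 0.19 (0.0482), 3 of 8 against 10.3% of tested genes lower. In each, all 3 libraries of all 3 stresses were below the 3 salt plus heat libraries, at 82.3, 93.5 and 88.2 TPM for HSP17.6A-CI, 535, 566 and 487 TPM for HSP17.6II and 437, 579 and 585 TPM for HSP17.8-CI. The share of all tested genes that separate in this way was not counted. The call of HSP17.6A-CI held under each alternative, whereas those of HSP17.6II and HSP17.8-CI were each lost when any of 5 of the 6 libraries was left out. Their adjusted p without replicate 1 of all 3 stresses was 0.202 (-0.44) and 0.206 (-0.43). Compared with mannitol plus heat, salt plus heat was higher in HSP17.6II by 0.85 ± 0.22 (adjusted p = 0.0432), 1 of 8 against 1.4% of tested genes higher. That call was lost without any single library of the pair of groups (adjusted p from 0.0750 to 0.135, the highest without mannitol plus heat replicate 1). HSP17.8-CI (0.68 ± 0.19, adjusted p = 0.0585) and HSP17.6A-CI (0.44 ± 0.13, 0.0709) were not called, although their groups did not overlap. HSP17.8-CI passed without salt plus heat replicate 1 (0.80, adjusted p = 0.0406), with DESeq2 (0.0308) and with a replicate block (0.0186). HSP17.6A-CI passed with the block (0.0330) and with the pair of groups alone in the fit (0.0274). All 3 stresses against mannitol plus heat gave 0 calls of 8 in edgeR (0 at an unadjusted p under 0.05, 0 in DESeq2, 0 in limma), against 2.62% of tested genes. That background moved with single libraries: its count of 524 genes became 45 without mannitol plus heat replicate 3 and 2086 without replicate 2, where 1 of the 8 genes was called. The salt effect in mannitol plus heat minus the salt effect in heat likewise gave 0 of 8 in edgeR (0 at an unadjusted p under 0.05, 0 in DESeq2, 0 in limma), against 1.44%.

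HSP18.2 was the gene whose heated replicates differed most. It had 471, 746 and 1498 TPM under all 3 stresses, 1146, 825 and 351 TPM with salt plus heat, 769.5, 2758 and 983 TPM with mannitol plus heat and 711, 2194 and 1678 TPM with heat. Its SD was 58.8%, 51.7%, 72.6% and 49.3% of the mean in those groups, in the same order, whereas no other gene exceeded 37.4% in a heated group. At 22 °C its SD was between 5.36% and 20.9% of the mean. The comparisons between heated groups could therefore detect smaller changes in the other 7 genes than in HSP18.2.

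Summed over the 8 genes, transcripts averaged 7474 ± 1434 TPM under all 3 stresses, 7604 ± 801 with salt plus heat, 7224 ± 1966 with mannitol plus heat and 8638 ± 2632 with heat (SD, 3 libraries each). These ranges overlapped. The unheated groups averaged 42.2 ± 4.34 TPM with salt plus mannitol, 32.5 ± 2.22 with salt, 36.5 ± 5.70 with mannitol and 36.7 ± 3.84 in control. In heated libraries the 8 genes took 0.312% to 0.589% of all reads. In make-up, class II transcripts were 13.8 ± 0.492% of the summed TPM under all 3 stresses and 13.4 ± 1.42% with mannitol plus heat, but 18.199 ± 1.06% with salt plus heat and 17.0 ± 0.481% with heat. The libraries of all 3 stresses and of mannitol plus heat, from 11.7% to 14.2%, lay below all of salt plus heat and heat, from 16.5% to 19.4%. HSP17.6II, 1 of the 2 class II genes, was called in the comparisons above, and the share itself was not tested.

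**Figure D5:**
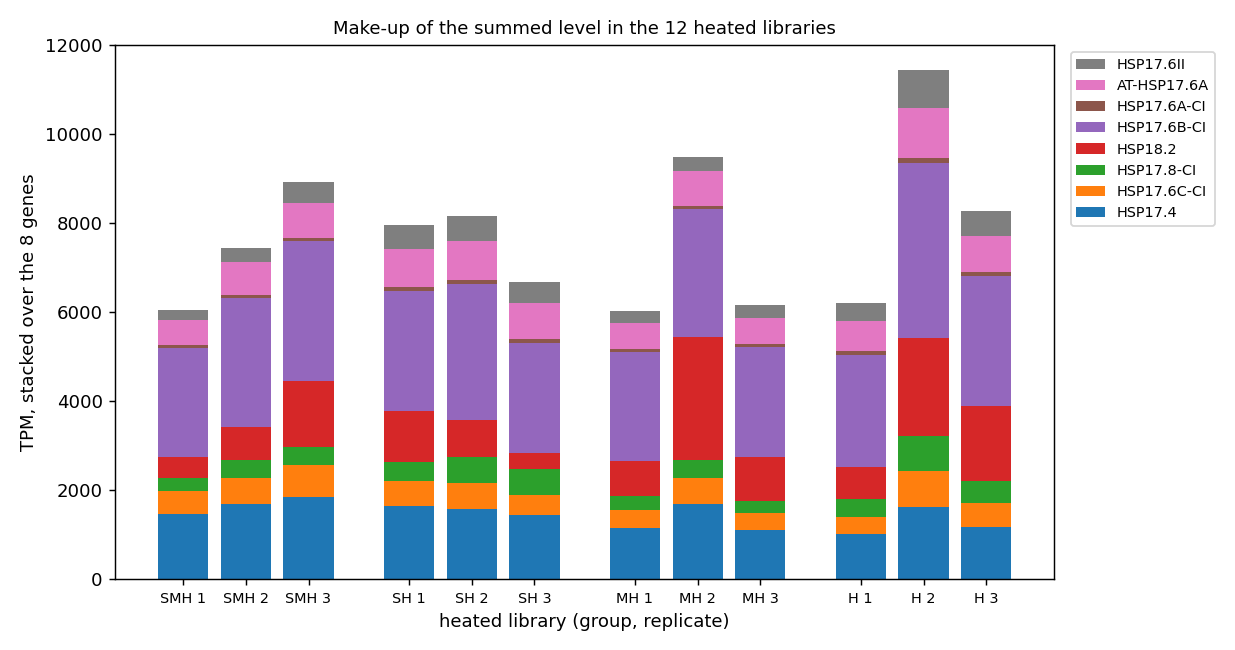
Summed TPM of the 8 genes in each of the 12 heated libraries, stacked by gene (SMH, all 3 stresses; SH, salt plus heat; MH, mannitol plus heat; H, heat; replicates 1 to 3). HSP17.6B-CI is the largest layer in every library, HSP17.6A-CI the thinnest, and the grey layer of HSP17.6II is thinner in SMH and MH (229 to 478 TPM) than in most SH and H libraries (412 to 841 TPM).

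The order of the groups differed between genes. Mean levels of HSP17.4 were highest under all 3 stresses at 1677 ± 188 TPM, ahead of 1558 ± 102 with salt plus heat, 1315 ± 325 with mannitol plus heat and 1275 ± 318 with heat (SD, 3 libraries each). HSP17.6C-CI was also highest under all 3 stresses, at 593 ± 109.6 TPM, against 576 ± 216 TPM with heat. The neighbours in both orders overlapped. The other 6 genes were highest with heat alone. In HSP17.8-CI, AT-HSP17.6A and HSP17.6II the order was heat, salt plus heat, all 3 stresses, mannitol plus heat, and in these the gap between salt plus heat and all 3 stresses held no overlap. The share of all tested genes without overlap between those groups was not counted. AT-HSP17.6A, for example, averaged 696 ± 109 TPM under all 3 stresses, 849 ± 33.8 with salt plus heat, 653 ± 121 with mannitol plus heat and 868 ± 234 with heat. For HSP17.6A-CI the gap lay between salt plus heat at 88.0 ± 5.60 TPM and mannitol plus heat at 65.1 ± 1.47 TPM. In HSP17.6B-CI and HSP18.2 all neighbouring heated groups overlapped. Within unheated groups, neighbours overlapped except HSP17.6A-CI between mannitol and salt and HSP18.2 between control (7.53 ± 1.34 TPM) and salt (5.92 ± 0.317 TPM). The order of the 8 groups was the same on the TMM-scaled counts for all 8 genes.

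Within the 12 heated libraries, log2(TPM + 1) of the genes moved together in a part of the set only (Pearson's r as a description, since the points share libraries and scaling). HSP17.8-CI correlated with AT-HSP17.6A at 0.93 and with HSP17.6II at 0.90, although the classes differ in sequence. The class II neighbours correlated at 0.90, and HSP17.6A-CI with HSP17.6II at 0.89. HSP17.4 correlated with HSP17.6C-CI at 0.82 but with HSP17.6A-CI at -0.08. HSP18.2 correlated with HSP17.8-CI at 0.23 and with HSP17.6B-CI, its closest, at 0.670. Over all 24 libraries every pair had an r of at least 0.951, which the heated and unheated clusters set. Among 14783 other genes, those most like the mean of the 8 over 24 libraries were AT1G72660 (r = 0.999), the mitochondrial HSP23.6-MITO (0.998), the co-chaperone gene Hop3 (0.997), ATHSP22.0 of the endoplasmic reticulum (0.997) and HSP90.1 (0.997), and 802 genes exceeded 0.95. Over the 12 heated libraries the most alike were AT5G58110, annotated as a chaperone-binding ATPase activator (0.977), AT5G66090 (0.937), AT3G11530 (0.937), AT1G15920 (0.909) and LSM3B (0.907), and 1 gene exceeded 0.95.

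Genes that act with the 8 were taken as lists: 11 other small heat shock proteins, 13 partner chaperones of the cytosol and 13 regulators, of which 10, 12 and 12 were tested. Against control, heat raised 9 of 10 other small heat shock proteins (median 5.22), 12 of 12 partner chaperones (median 1.94) and 8 of 12 regulators, with 1 lower (median 1.70). Of the 20027 tested genes, 31.7% were called higher there and 6185 genes were called lower. HSP21 of the plastid rose by 9.26 ± 0.85, HSP23.6 of mitochondria by 9.17 ± 0.26 and HSP22.0 by 9.64 ± 0.75, all above the median of their list. HSP15.7 of peroxisomes rose by 4.53 ± 0.22, and the other members of that list are not set out here. HSP101, the disaggregase, rose by 4.49 ± 0.13, HSP70 (AT3G12580) by 7.69 ± 0.33, HSP70B by 2.26 ± 0.17 and HSP90.1 by 6.99 ± 0.21. The heat-induced factor HSFA2 rose by 6.74 ± 0.21, HSFA7A by 1.87 ± 0.18 and HSFB1 by 1.53 ± 0.23. Of the factors present before stress, HSFA1D rose by 0.81 ± 0.10, HSFA1B fell by 0.52 ± 0.08 and HSFA1A gave -0.06 ± 0.14 (adjusted p = 0.733).

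Under all 3 stresses, compared with heat alone, 5 of 10 other small heat shock proteins fell and 1 rose, 7 of 12 partner chaperones fell, and 6 of 12 regulators fell and 2 rose. The background was 13.1% of tested genes lower and 9.97% higher. HSP15.7 fell by 0.74 ± 0.16, HSP101 by 0.39 ± 0.11, HSFA2 by 0.54 ± 0.14 and HSFA7A by 1.34 ± 0.17, while HSP21 rose by 1.41 ± 0.43. With mannitol plus heat against heat, 2 of 10 other small heat shock proteins fell, 1 of 12 partner chaperones rose, and 4 of 12 regulators fell and 1 rose. The background there was 6.31% of tested genes lower and 6% higher. HSP15.7 fell by 0.61 ± 0.16 and HSFA7A by 0.52 ± 0.16, whereas HSFA2 gave -0.26 ± 0.13 (adjusted p = 0.200). With salt plus heat against heat, the medians were -0.09 for other small heat shock proteins, 0.02 for partner chaperones and 0.02 for regulators. The median log2 change of the 8 genes together stood at -0.50 under all 3 stresses and -0.39 with mannitol plus heat, the partner chaperones at -0.40 and -0.17, and all tested genes at -0.02 and 0.00287.

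At 22 °C, the partner chaperone HSP70 was called in each watered group. HSP70 and the regulator HSFA2 are single genes picked from their lists, whose other members are not set out here. The background was 32.6% of tested genes called with salt plus mannitol and 10.9% with salt, in either direction. With mannitol, 12.2% of tested genes were higher. HSP70 rose by 2.16 ± 0.28 with salt plus mannitol, 2.04 ± 0.28 with salt and 1.79 ± 0.28 with mannitol against control, and HSFA2 rose by 1.42 ± 0.28 with salt (adjusted p = 0.00264). Of the 8, HSP17.6A-CI rose with mannitol and none rose with salt. The heat effect on HSP70 was lower with salt than without by 1.95 ± 0.37, with mannitol by 1.92 ± 0.37 and with both by 2.61 ± 0.37, all called. The background was 1.4% of tested genes called in either direction with salt, 5.19% lower with mannitol and 3.11% lower with both.

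In the comparisons that follow, leaving out 1 library moved the number of all tested genes called by more than 1.5 times. For salt against control, it lay between 1042 (without control replicate 3) and 1956 (without control replicate 1), against 2191 with all libraries. For salt plus heat against heat, it lay between 41 (without salt plus heat replicate 2) and 281 (without heat replicate 1), against 206 with all libraries. For mannitol plus heat against heat, it lay between 949 (without heat replicate 2) and 2881 (without heat replicate 1), against 2465 with all libraries. For all 3 stresses against heat, it lay between 2852 (without all 3 stresses replicate 1) and 4125 (without heat replicate 1), against 4623 with all libraries. For all 3 stresses against salt plus heat, it lay between 1562 (without all 3 stresses replicate 1) and 3080 (without all 3 stresses replicate 3), against 3453 with all libraries. For all 3 stresses against mannitol plus heat, it lay between 45 (without mannitol plus heat replicate 3) and 2086 (without mannitol plus heat replicate 2), against 524 with all libraries. For salt plus heat against mannitol plus heat, it lay between 212 (without salt plus heat replicate 2) and 543 (without mannitol plus heat replicate 3), against 602 with all libraries. For the heat effect with salt minus heat effect without, it lay between 51 (without heat replicate 2) and 581 (without heat replicate 1), against 281 with all libraries. For the heat effect with mannitol minus heat effect without, it lay between 855 (without control replicate 2) and 2428 (without heat replicate 1), against 1759 with all libraries. For the heat effect with salt plus mannitol minus heat effect without, it lay between 514 (without salt plus mannitol replicate 1) and 1560 (without heat replicate 1), against 1117 with all libraries. For the salt effect in mannitol plus heat minus salt effect in heat, it lay between 60 (without salt plus heat replicate 1) and 1023 (without mannitol plus heat replicate 2), against 288 with all libraries.

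In the authors' deposited table, which compares each treatment with control, the q-value was under 0.05 for all 8 genes in the 4 heated treatments, for 1 with salt plus mannitol, 0 with salt and 2 with mannitol. The share of all genes with such a q-value was not counted, so these counts have no background. Converted from the natural log to log2, the authors' deposited table gave 5.44 to 8.56 for heat, with HSP17.6A-CI the lowest, and 1.72 for HSP17.6A-CI with mannitol (q = 0.00864).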

How the data were processed

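Per the labels' protocols, libraries were made with a kit that does not mark strand and read as pairs of 100 bases. The submitters' processing notes name kallisto 0.45.1, sleuth 0.30.0 and, with no version, CASAVA. The deposited estimated counts are raw kallisto counts per the file headers, yet 94.5% to 95.0% of the values above 0 in each library were whole multiples of 1 constant (tolerance 0.001; constants 0.797 to 1.25), which was divided out before rounding. The deposited TPM values, a signal per transcript length per the file headers, had library sums of 0.920 to 1.12 M (M for mega), which points to a rescaling by the authors, and serve for levels only. The authors' q-values (adjusted p-values) and the authors' fold changes, on a natural log scale by their size against TPM, are quoted only where the deposited table is named. The annotation was Araport 11 per the file headers, which name no genome build. Sequences and coordinates therefore come from RefSeq's own TAIR10.1 annotation, matched by gene identifier: of 26642 genes compared, all lay on the same chromosome and 44.3% shared a start or end with the table.

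A model with a mean per group was fitted to the 24 libraries by edgeR 4.0.16 under R 4.3.3, after filterByExpr and TMM scaling; its tests were robust quasi-likelihood F tests, whose p-values were adjusted by Benjamini and Hochberg over all 20027 genes. Genes with an adjusted p under 0.05 are the ones called, or described as rising or falling. The fit was run on simulated data with fewer and smaller heat changes than those found here, so that run gives no check on changes of this size. Chi-square tests between replicates gave 3.21 to 24.1 per degree of freedom, above the value of 1 for counting error alone, and all 24 libraries were kept as separate samples. Alternatives were RLE factors, library totals alone, no filter on low counts, the deposited counts as they stand, DESeq2 1.42.0, limma 3.58.1 on log2(TPM + 1) and log2(TPM + 0.1), the groups of the comparison alone, a replicate block and each library left out. Leaving out the 4 libraries with over 0.1% organelle reads, and the motif window before the start codon, were chosen after seeing the data. The 8 genes and all lists were chosen with earlier results of these data known. The genes named were the 8, 14 genes set out from the lists, and the 5 others with the highest Pearson correlation of log2(TPM + 1) with the mean of the 8, over the 24 libraries and over the 12 heated ones, among genes with a mean TPM of at least 5 in any group. Protein sequences were not used here.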

Additional observations from a re-analysis of the deposited data

Results flagged for a closer look

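The heat effect on HSP17.6A-CI differed with mannitol watering, by the test of that difference itself. Heated against unheated plants, it was 3.09 ± 0.16 on the log2 scale with mannitol and 5.49 ± 0.20 for heat against control, a difference of -2.40 ± 0.28 (edgeR quasi-likelihood test, adjusted p = 3.97e-05). With salt plus mannitol the heat effect was 2.87 ± 0.16, a difference of -2.62 ± 0.28 from that of heat against control (adjusted p = 1.55e-05). In unheated plants all 6 mannitol-watered libraries lay above the 3 controls, and in heated plants all 6 lay below the 3 libraries of heat alone. Both differences were called under all 22 alternatives run for each, with values between -2.55 and -1.99 for mannitol and between -2.78 and -2.20 for salt plus mannitol. The corresponding difference with salt was -0.37 ± 0.34 (edgeR, adjusted p = 0.609). The protocols record no watering of this kind for the control and heat groups, whereas the salt groups were watered like the mannitol groups. Between those, HSP17.6A-CI did not overlap at 22 °C (5.93 to 8.91 TPM with mannitol, against 2.05 to 3.05 TPM with salt) or at 35 °C (64.1 to 66.8 TPM with mannitol, against 82.3 to 93.5 TPM with salt). The difference at 35 °C, 0.44 for salt plus heat against mannitol plus heat, was not called (edgeR quasi-likelihood test, adjusted p = 0.0709). Mannitol against salt at 22 °C was not tested, nor was the heat effect with mannitol against that with salt. The part of watering itself was not tested.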

How the results depend on the processing

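The 79 results for single genes were recomputed 1276 times: 1214 kept their side of the threshold, 50 lost it, 12 gained it and 0 changed sign, with 66 results the same throughout. All 8 genes were called against control in each of the 4 heated groups, and in heated against unheated plants within each watering, under every alternative run. Other counts of called genes among the 8 moved as follows; the cause was not tested. Salt against control had 0 calls, and 1 with DESeq2, both limma fits and the 2 groups alone. Mannitol against control had 2, and 1 with library totals alone (1 to 2 with a library left out). Mannitol plus heat against heat had 3, 1 with the 2 groups alone and 4 without the 4 libraries of high organelle share (2 to 4 with a library left out). All 3 stresses against heat had 3, 1 with the 2 groups alone and 2 with both limma fits, where HSP17.8-CI was lost (2 to 4 with a library left out). All 3 stresses against salt plus heat had 3, and 1 with library totals alone, no filter, limma on log2(TPM + 0.1), the 2 groups alone or without the 4 libraries, and 2 with RLE factors, DESeq2 and limma on log2(TPM + 1) (1 to 2 with a library left out). All 3 stresses against mannitol plus heat had 0 (0 to 1 with a library left out, 1 without mannitol plus heat replicate 2). Salt plus heat against mannitol plus heat had 1, then 0 with library totals alone, no filter, limma on log2(TPM + 0.1) or without the 4 libraries, 2 with DESeq2 or the 2 groups alone, and 0 to 1 with a library left out.

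Deviations of same-numbered replicates had a median r of 0.000735 over all 84 pairs (21 above 0.1). A replicate block gave 3 calls for salt plus heat against mannitol plus heat, where the fit without it gave 1, and changed no other count among the 8.

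Over all tested genes, the counts that moved by more than 1.5 times were these, beside those with single libraries left out, which stand with the gene lists above; the cause was not tested. Salt against control had 2191, 1400 without the 4 libraries. Salt plus heat against heat had 206, 410 with DESeq2, 79 with its groups alone. Mannitol plus heat against heat had 2465, 588 with its groups alone, 1388 without the 4 libraries. Against heat, all 3 stresses had 4623, 2966 with its groups alone. Against mannitol plus heat, all 3 stresses had 524, 984 with DESeq2, 157 with its groups alone, 1797 without the 4 libraries. Salt plus heat against mannitol plus heat had 602, 905 with DESeq2, 286 with its groups alone, 256 without the 4 libraries. The heat effect with salt minus heat effect without had 281, 585 with DESeq2, 136 without the 4 libraries. The heat effect with mannitol minus heat effect without had 1759, 591 with its groups alone, 779 without the 4 libraries. The heat effect with salt plus mannitol minus heat effect without had 1117, 643 without the 4 libraries. The salt effect in mannitol plus heat minus salt effect in heat had 288, 648 with DESeq2, 14 with its groups alone, 656 without the 4 libraries.

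Library totals alone moved the median log2 fold change of all genes, against control, by 0.11 (salt), 0.12 (salt plus mannitol), 0.13 (mannitol plus heat) and 0.18 (all 3 stresses), and by 0.11 for all 3 stresses against heat. The split of calls over all genes, higher then lower, became 2434 and 747 for salt against control (909 and 1282 with TMM), 3827 and 1398 for mannitol (2447 and 2280), 5298 and 2298 for salt plus mannitol (3083 and 3441), 7800 and 5016 for mannitol plus heat (6534 and 6416) and 8438 and 4845 for all 3 stresses (6611 and 6543). Against heat it became 87 and 91 with salt (73 and 133), 2001 and 818 with mannitol (1201 and 1264) and 3684 and 1477 with both (1996 and 2627). All 3 stresses gave 2321 and 1253 against salt plus heat (1399 and 2054) and 237 and 202 against mannitol plus heat (171 and 353). Salt plus heat against mannitol plus heat gave 172 and 422 (280 and 322), and the heat effect with salt minus that without gave 85 and 193 (172 and 109). The falls of HSP17.6A-CI, HSP17.8-CI and HSP17.6II against heat, with mannitol and under all 3 stresses, kept their sign and their call there. The genes held 38 to 364 reads each over the 3 control libraries, which limits the precision of every value at 22 °C.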
